A study of Mus musculus with 12 samples.

Results

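The SLAM family receptors are a group of related immunoglobulin-superfamily proteins on the surface of blood cells, and 8 of their genes are described here across sorted mouse B cells: Slamf1, Slamf6, Slamf7, Slamf8, Slamf9, Cd48, Cd84 and Ly9. They were chosen by name, as the probe sets to which the array's annotation gives one of these symbols and no other. This took 13 of the 34945 probe sets with a single symbol, and 8 of the 18193 genes they stand for. Slamf1 and Slamf6 have 3 probe sets each, Cd84 has 2 and the other 5 genes have 1.

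RNA came from female C57BL/6 mice with no transgene or treatment named in the labels, and each group holds 3 arrays. Age-associated B cells (old ABC) were sorted from the spleen of mice older than 15 months. B1 cells came from the peritoneal cavity of mice older than 15 months (old B1) or of 8 weeks (young B1); the sample titles call them B1a. Follicular B cells (old FO), the main resting B cells of the spleen, came from mice older than 15 months. Which surface markers the sort used is not in the labels, nor is the origin of the 3 samples of a group (mice, pools or sorts), so the p-values cover the spread among these samples alone, and that spread may be technical. B1 and spleen cells differ in organ as well as cell type.

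Most SLAM receptors bind the same receptor on a neighbouring cell, so that a B cell and a T cell that carry it can signal to each other. Slamf1, Slamf6, Slamf7, Cd84 and Ly9 carry tyrosine switch motifs in their tails, which recruit small adaptors such as SAP (encoded by Sh2d1a) or phosphatases. Cd48 is held in the membrane by a lipid anchor and binds 2B4 (Cd244a) and Cd2. Slamf8 and Slamf9 have short tails without the switch motif. In germinal centres, SLAM receptors and SAP are known for their part in the contact between B cells and helper T cells.

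All the receptors lie in 1 block of mouse chromosome 1, in the order Ly9, Slamf7, Cd48, Slamf1, Cd84, Slamf6 and then, beyond a stretch of other genes, Slamf9 and Slamf8. RefSeq promoter windows (GRCm38.p6, 250 bases before to 50 after the gene start) were matched for 7 of the 8. Those of the genes whose group means spread most, Slamf9, Slamf1 and Slamf8, are shown because their RNA levels followed different patterns although they share this block. Capitals mark matches to the motifs searched: the E-box CACGTG, an ETS motif (GAGGAAGT), an interferon response motif (GAAA, any pair of bases, GAAA), an NF-kappaB motif (GGGA, any base, TTTCC), a T-box motif (AGGTGTNA), an octamer (ATGCAAAT) and an Ebf motif (TCCC, any pair of bases, GGGA), each on both strands. None of the matches overlaps another.
Slamf9, chr1:172475110-172475409, plus strand: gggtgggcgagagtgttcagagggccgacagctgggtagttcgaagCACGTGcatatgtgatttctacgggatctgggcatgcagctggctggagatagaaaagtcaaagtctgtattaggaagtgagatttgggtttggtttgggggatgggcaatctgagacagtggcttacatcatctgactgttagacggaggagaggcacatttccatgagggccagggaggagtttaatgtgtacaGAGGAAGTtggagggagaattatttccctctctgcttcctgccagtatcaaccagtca
Slamf1, chr1:171766882-171767181, plus strand: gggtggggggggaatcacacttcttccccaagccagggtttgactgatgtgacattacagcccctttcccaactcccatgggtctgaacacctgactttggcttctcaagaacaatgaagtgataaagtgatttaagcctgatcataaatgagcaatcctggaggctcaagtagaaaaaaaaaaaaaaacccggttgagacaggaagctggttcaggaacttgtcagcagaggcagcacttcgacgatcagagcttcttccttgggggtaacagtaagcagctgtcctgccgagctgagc
Slamf8, chr1:172590519-172590818, minus strand: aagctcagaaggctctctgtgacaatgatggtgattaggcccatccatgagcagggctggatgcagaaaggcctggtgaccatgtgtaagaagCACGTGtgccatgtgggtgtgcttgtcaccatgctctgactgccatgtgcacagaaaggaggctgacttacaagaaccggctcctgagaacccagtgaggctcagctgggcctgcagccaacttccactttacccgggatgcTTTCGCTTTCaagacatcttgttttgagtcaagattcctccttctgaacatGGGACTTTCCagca

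The Slamf9 window holds the E-box at bases 47 to 52 and the ETS motif at bases 243 to 250. The Slamf8 window holds the E-box at bases 94 to 99, the interferon response motif, on the reverse strand, at bases 236 to 245 and the NF-kappaB motif at bases 287 to 296. The Slamf1 window holds none of these letters, and the other match among the 7 windows is a T-box motif in that of Cd84. Among 32851 promoter windows of the same length, 7.15% hold the E-box, 3.2% the ETS motif, 3.44% the interferon response motif, 0.411% the NF-kappaB motif, 3.03% the T-box motif, 1.74% the octamer and 0.904% the Ebf motif. A match describes letters in the window and is not evidence of binding.

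The medians of the arrays ran from 44.0 to 49.2 in linear intensity. Old B1 replicate 3 and old FO replicate 2 stood apart, with 75th percentiles of 346 and 378, against 400.1 to 412 on the other 10 arrays, so values that rest on them are also given without them. Of 6 B cell markers, 5 or 6 exceeded the overall median on every array (5 on the old B1 arrays, 6 elsewhere), and their summed linear intensity was 37201 to 38398 in old ABC, 37004 to 38165 in old B1, 37120 to 37809 in young B1 and 39871 to 41857 in old FO. Below, values are log2 intensity, in which 1 unit is a doubling, differences are log2 differences ± the standard error of the fit, n is 3 arrays a group, and limma's adjusted p covers all genes. Levels are compared within a probe set, not between genes.

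**Figure D1:**
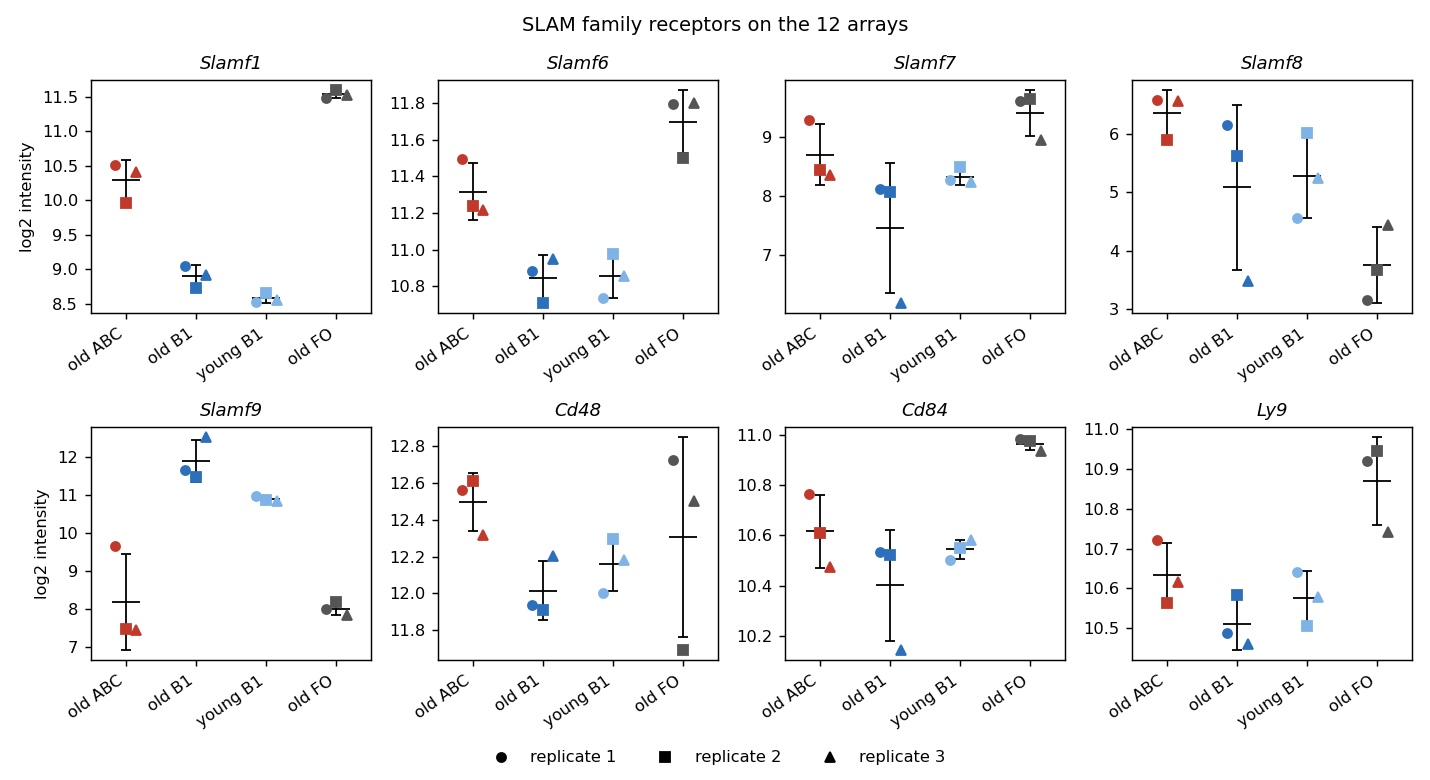
Log2 intensity (vertical axes, a separate range for each gene) of the 8 SLAM receptors on every array, by group along the horizontal axes. Points are arrays, shaped by replicate, and bars are the mean ± SD of 3 arrays. Slamf1 lies near 11.5 on the old FO arrays and under 9.1 on all B1 arrays, Slamf9 lies above 10.8 on the B1 arrays and under 9.7 elsewhere, and the low Slamf7 and Slamf8 points of old B1 are replicate 3.

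The first comparison, of old ABC with old FO cells, is between B cells of 1 organ and age. Among the self-binding receptors, old ABC held less Slamf1 (CD150) than old FO, and the short-tailed Slamf8 was the 1 receptor called higher. Of the 8 receptors 2 were called, 1 higher and 1 lower, beside 9.96% of all genes called, 7.12% higher and 2.84% lower. The median difference of the 8 was -0.29, beside -0.03 over all genes.

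Slamf1 read 10.51, 9.95 and 10.40 on the 3 old ABC arrays, against 11.49, 11.59 and 11.53 on the old FO arrays. The groups did not overlap, and every old ABC array lay under every old FO array. Slamf1 fell by 1.25 ± 0.14 in old ABC (adjusted p = 0.000285), and it was called under all 20 alternative settings, with differences from -1.36 to -1.08. In the fit of all probe sets, where 7.69% were called, its other probe sets gave -1.48 ± 0.22 (adjusted p = 0.00193) and -1.35 ± 0.40 (adjusted p = 0.0708, not called).

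Slamf8, whose protein is known from macrophages, read 6.59, 5.90 and 6.57 in old ABC, against 3.17, 3.67 and 4.45 in old FO. The old FO arrays have their 25th percentile between 3.68 and 3.82, so 2 of the 3 old FO values lie at the dim end where small intensities set the size of a log2 difference. The difference was 2.59 ± 0.64 (adjusted p = 0.0267). The call was lost with the replicate block (adjusted p = 0.0601) and without old ABC replicate 1 (0.0891), old ABC replicate 3 (0.088), old FO replicate 1 (0.104) or old FO replicate 2 (0.0757).

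Markers of macrophages and monocytes moved with these groups. Of 13 measured, 10 were higher in old ABC and 0 lower, and their summed linear intensity was 16023 to 17869 in old ABC, against 1120 to 3049 in old FO. Neutrophil markers moved too: 5 of 8 were higher in old ABC and 0 lower, with sums of 20693 to 35028 in old ABC, against 443 to 9959 in old FO. Csf1r, the macrophage growth factor receptor and a defining marker, read 10.82 to 11.36 in old ABC, against 7.01 to 8.44 in old FO. The part of macrophage and neutrophil RNA in the receptors' differences was not tested, and in these bulk samples fewer cells of a type and less RNA per cell cannot be told apart.

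Slamf6 (Ly108), a self-binding receptor of B and T cells, read 11.50, 11.24 and 11.21 in old ABC, against 11.79, 11.50 and 11.80 in old FO. The difference was -0.38 ± 0.13 (adjusted p = 0.0976, not called). It was called with both outlying arrays left out (-0.48, adjusted p = 0.024), with array weights (-0.38, adjusted p = 0.0235) and with the mean of its 3 probe sets (-0.63, adjusted p = 0.0317). Cd84, another self-binding receptor, read 10.76, 10.61 and 10.47 in old ABC, against 10.98, 10.98 and 10.94 in old FO (-0.35 ± 0.12, adjusted p = 0.116), and without the 2 arrays it was called (-0.34, adjusted p = 0.0485). Both genes had groups that did not overlap, as did 28.8% of all genes in this comparison.

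Ly9 (CD229) read 10.72, 10.56 and 10.62 in old ABC, against 10.92, 10.94 and 10.74 in old FO (-0.24 ± 0.09, adjusted p = 0.183). Slamf7 (CRACC), known from plasma cells and NK cells, read 9.29, 8.44 and 8.36 in old ABC, against 9.60, 9.64 and 8.95 in old FO (-0.70 ± 0.46, adjusted p = 0.481). The Slamf7 groups overlapped through old ABC replicate 1, the highest of its group. Slamf9 read 9.66, 7.47 and 7.46 in old ABC, against 8.01, 8.18 and 7.84 in old FO, and the difference of 0.18 ± 0.50 turned to -0.55 without old ABC replicate 1. Cd48 read 12.56, 12.61 and 12.32 in old ABC, against 12.72, 11.69 and 12.50 in old FO, and its difference of 0.19 ± 0.23 turned to -0.11 without old FO replicate 2.

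The partners of Cd48 stood as follows. Cd2 rose by 0.35 ± 0.09 in old ABC (adjusted p = 0.0336, called under 10 of 20 alternatives), at 13.04 ± 0.09 in old ABC and 12.69 ± 0.10 in old FO (mean ± SD). Cd244a averaged 7.24 ± 0.46 in old ABC and 6.24 ± 0.21 in old FO (mean ± SD), a difference of 0.99 ± 0.28 (adjusted p = 0.0515), and its second probe set gave 0.39 ± 0.24 (adjusted p = 0.464). Of the 13 measured genes of SLAM signalling 1 was higher and 0 lower, beside 9.96% of all genes called. The 1 was Ptpn11, the phosphatase SHP-2 (0.52 ± 0.10, adjusted p = 0.00707). Sh2d1a, which encodes SAP, differed by 0.31 ± 0.43 (adjusted p = 0.793) and Fyn, the kinase that SAP recruits, by -0.23 ± 0.39 (adjusted p = 0.844). Sh2d1b1 and Sh2d1b2 have no probe set of a single symbol and were not analysed here.

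**Figure D2:**
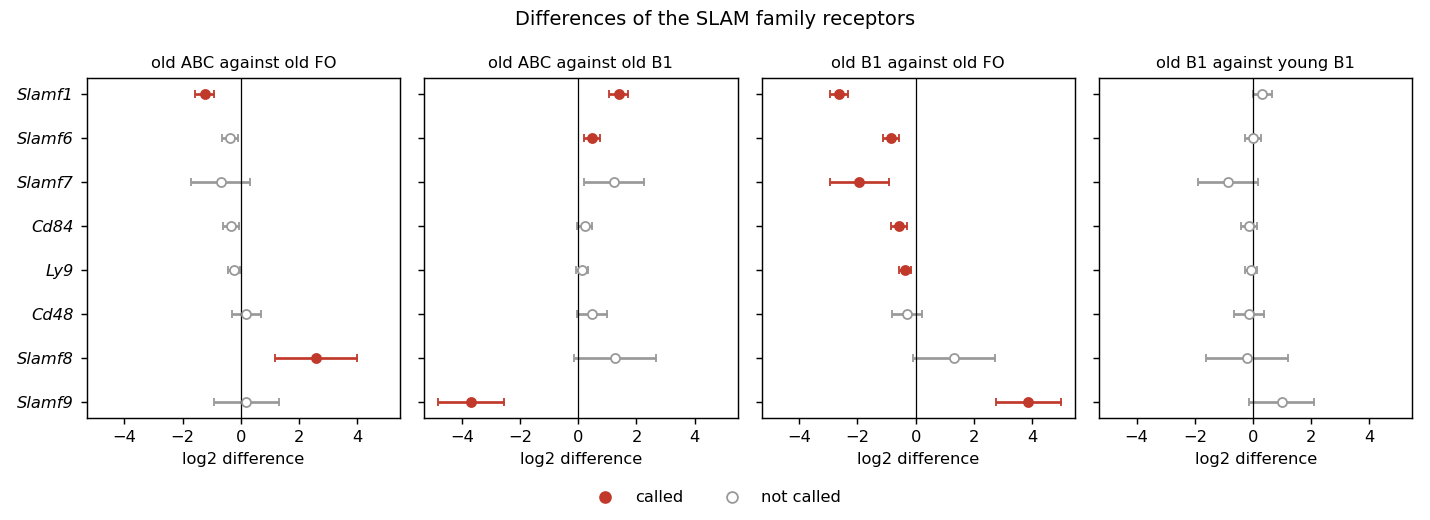
Log2 differences (horizontal axes) of the 8 SLAM receptors (rows) in the 4 comparisons, with 95% confidence intervals of the limma fit. Filled red points were called at an adjusted p under 0.05 and open grey points were not; Slamf1 was called in 3 comparisons, at -1.25, 1.39 and -2.64, and no receptor was called between old and young B1 cells.

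Old B1 against old FO cells compares the peritoneal and splenic populations of old mice. Here most of the 8 moved: Slamf1, Slamf6, Slamf7, Cd84 and Ly9 fell in old B1, while Slamf9 rose. Cd244a, which is not among the 8, was higher in old B1 by 1.59 ± 0.28 (adjusted p = 0.00297) on the probe set used. Of the 8 receptors 6 were called, 5 lower and 1 higher, beside 16.4% of all genes called, 8.02% lower and 8.4% higher. Their median difference was -0.46, beside -0.04 over all genes. Without the 2 arrays that stand apart 7 were called.

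Slamf1 read 9.05, 8.73 and 8.91 in old B1, against 11.49, 11.59 and 11.53 in old FO. It fell by 2.64 ± 0.14, which is 6.23-fold higher in old FO (adjusted p = 1.4e-06), and the alternatives gave -2.71 to -2.38. All 3 of its probe sets were called, beside 14.2% of all probe sets, the other 2 at -2.38 ± 0.22 (adjusted p = 5.1e-05) and -2.12 ± 0.40 (adjusted p = 0.00477).

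Slamf6 read 10.89, 10.71 and 10.95 in old B1, against 11.79, 11.50 and 11.80 in old FO. It fell by 0.85 ± 0.13 (adjusted p = 0.00106), and its other probe sets fell by 1.19 ± 0.22 (adjusted p = 0.00499) and 1.59 ± 0.31 (adjusted p = 0.00564), so the direction was the same in all 3 while the size differed. Slamf7 read 8.12, 8.08 and 6.20 in old B1, against 9.60, 9.64 and 8.95 in old FO. It fell by 1.93 ± 0.46 (adjusted p = 0.016), and by 1.30 (adjusted p = 0.00771) without old B1 replicate 3, the lowest array, by 1.18 (adjusted p = 0.0213) with old FO replicate 2 left out too and by 1.12 (adjusted p = 0.0142) with array weights. Its call was lost without old FO replicate 1 (0.061) and in a fit of the 2 groups alone (0.105). The groups did not overlap in either gene, nor in 28.9% of all genes.

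Cd84 read 10.53, 10.52 and 10.14 in old B1, against 10.98, 10.98 and 10.94 in old FO, and fell by 0.56 ± 0.12 (adjusted p = 0.00915). Its second probe set gave -0.17 ± 0.37 (adjusted p = 0.819), and the mean of both was not called (-0.37, adjusted p = 0.17), nor was Cd84 in a fit of the 2 groups alone (0.0786). Ly9 read 10.49, 10.58 and 10.46 in old B1, against 10.92, 10.94 and 10.74 in old FO, and fell by 0.36 ± 0.09 (adjusted p = 0.0262). This small difference was called under 15 of 20 alternatives and was lost with both outlying arrays left out (-0.29, adjusted p = 0.0886), without old B1 replicate 1 (0.0696), old FO replicate 1 (0.0897) or old FO replicate 2 (0.0694), and in a fit of these 2 groups alone (0.15).

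Slamf9 was the receptor with the widest difference. It read 11.67, 11.47 and 12.51 in old B1, against 8.01, 8.18 and 7.84 in old FO, a rise of 3.87 ± 0.50 (14.6-fold, adjusted p = 4.5e-04) that ranked 145 in size among 18193 genes. It was called under all 20 alternatives, with differences from 3.56 to 4.07. Slamf8 read 6.15, 5.62 and 3.48 in old B1, against 3.17, 3.67 and 4.45 in old FO (1.32 ± 0.64, adjusted p = 0.204). Its groups overlapped through old B1 replicate 3, without which it was called (2.13, adjusted p = 0.00696). Cd48 read 11.93, 11.91 and 12.20 in old B1, against 12.72, 11.69 and 12.50 in old FO (-0.29 ± 0.23, adjusted p = 0.467). Without old FO replicate 2, its lowest array, Cd48 was called lower in old B1 (-0.60, adjusted p = 0.024).

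Macrophage markers moved with this comparison as well. All 13 measured were higher in old B1, with summed linear intensities of 29935, 28854 and 11863 on old B1 replicates 1 to 3, against 1120 to 3049 in old FO. The replicate with the lowest sum, old B1 replicate 3, had the highest Slamf9 of the 12 arrays (12.51) and the lowest Slamf8 of its group (3.48). This array is among those that stand apart. Its dendritic cell (754), neutrophil (157), mast cell (1921), T cell (496) and NK cell (404) sums were also the lowest of old B1, and its plasma cell sum (12613) was the highest. Among the old ABC arrays, replicate 1 had the highest sum (17869) and the highest Slamf9 (9.66). Replicates 2 and 3, with sums of 16023 and 16736, had Slamf9 of 7.47 and 7.46. The macrophage sum was not alone in this. Old ABC replicate 1 also had the highest neutrophil (35028), plasma cell (14091), mast cell (719), T cell (3488) and NK cell (3469) sums of its group. Its dendritic cell sum (2735) was the lowest. Csf1r read 8.30 to 11.62 in old B1, against 7.01 to 8.44 in old FO. Mast cell markers moved in the same direction, with 5 of 6 higher in old B1 and sums of 1921 to 4519 in old B1, against 90.8 to 107 in old FO. The part of macrophage and mast cell RNA in these differences was not tested.

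**Figure D3:**
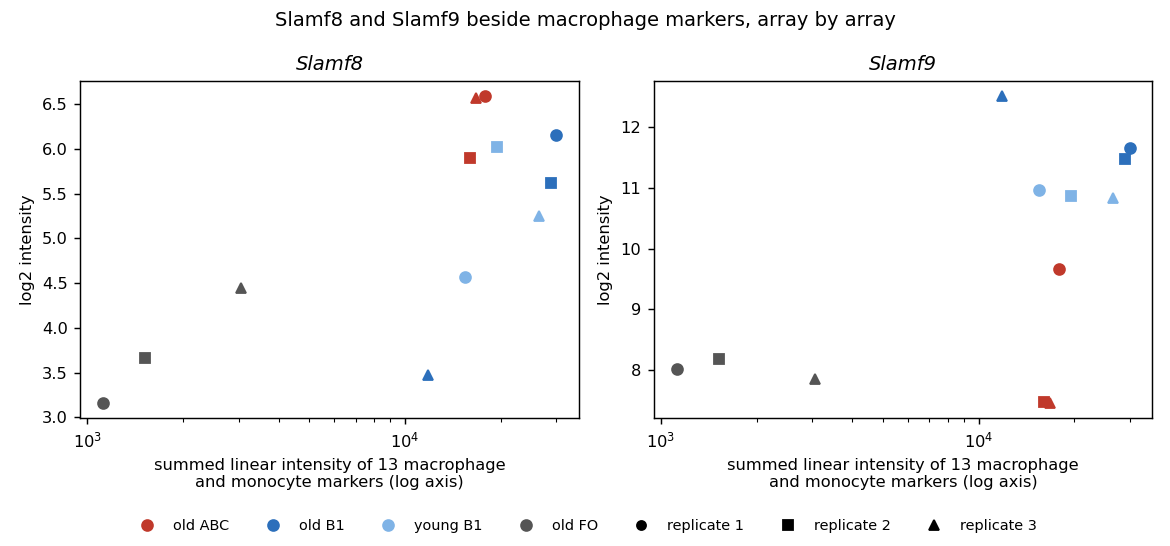
Log2 intensity of Slamf8 (left) and Slamf9 (right) on the vertical axes against the summed linear intensity of 13 macrophage and monocyte markers on a log axis, 1 point for each of 12 arrays, coloured by group and shaped by replicate. Old B1 replicate 3, an array that stands apart, has the highest Slamf9 (12.51) and a Slamf8 of 3.48 at a sum of 11863. Old ABC replicates 1 to 3 have Slamf9 of 9.66, 7.47 and 7.46 at sums of 17869, 16023 and 16736. Sums of other cell type markers also differ among these arrays.

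The other cell type lists were as follows, beside 9.96% of all genes called between old ABC and old FO and 16.4% between old B1 and old FO. Between old ABC and old FO, 5 of 8 plasma cell, 2 of 7 dendritic cell, 2 of 6 mast cell, 1 of 9 T cell and 2 of 7 NK cell markers were higher and 0 lower. The plasma cell markers summed to 12962 to 14091 in old ABC, 10760 to 12613 in old B1 and 8613 to 12287 in old FO. Between old B1 and old FO, 2 of 8 plasma cell markers were higher and 1 lower, 1 of 7 dendritic cell markers was higher and 2 lower, 1 of 7 NK cell markers was higher, and 0 of 8 neutrophil and 0 of 9 T cell markers were called. Ncr1, the defining NK cell marker, read 3.85 to 5.27 in old ABC, 3.31 to 3.46 in old B1 and 2.98 to 3.16 in old FO, under the median of all probe sets (5.53) on each of these arrays. Other markers of that list read higher. Nkg7, over that median on each of these arrays, read 8.60 to 9.90 in old ABC, 5.77 to 10.02 in old B1 and 7.47 to 9.62 in old FO. All 7 NK cell markers summed to 1611 to 3469 in old ABC, 404 to 2163 in old B1 and 923 to 1468 in old FO. Cd3e, the defining T cell marker, read 8.96 to 9.11 in old ABC, 6.12 to 9.23 in old B1 and 8.07 to 9.27 in old FO. Old B1 replicate 3, the array with the lowest Slamf7, had an NK cell sum of 404, against 2163 and 1578 on old B1 replicates 1 and 2. Its T cell sum was 496, against 2984 and 2193. The part of these cells in the receptors' values was not tested.

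In SLAM signalling, 1 of 13 genes was higher in old B1 than in old FO and 2 were lower, beside 16.4% of all genes called. Fyn fell in old B1 by 2.14 ± 0.39 (adjusted p = 0.00336), and by 1.54 without old B1 replicate 3, where it read 6.96, against 8.75 and 8.77 on the other old B1 arrays and 10.13 to 10.41 in old FO. Ptpn6, the phosphatase SHP-1, fell by 0.53 ± 0.10 (adjusted p = 0.00382) and Ptpn11 rose by 0.33 ± 0.10 (adjusted p = 0.0442, called under 7 of 20 alternatives). Sh2d1a differed by -0.44 ± 0.43 (adjusted p = 0.572). Both partners of Cd48 were higher in old B1: Cd244a by 1.59 ± 0.28 (adjusted p = 0.00297) and Cd2 by 0.59 ± 0.09 (adjusted p = 0.00118). The second probe set of Cd244a was not called (0.73 ± 0.24, adjusted p = 0.0686).

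The comparison of old ABC with old B1 cells is between spleen and peritoneal B cells of old mice. Old ABC held more Slamf1 and Slamf6 and less Slamf9. Of the 8 receptors 3 were called, 2 higher and 1 lower, beside 12.8% of all genes called, 7.4% higher and 5.43% lower, and the median difference was 0.47, beside 0.02 over all genes. These arrays are those of the comparisons above, so the 3 sets of differences are not independent of each other.

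Slamf1, at 10.51, 9.95 and 10.40 in old ABC and 9.05, 8.73 and 8.91 in old B1, was higher in old ABC by 1.39 ± 0.14 (2.62-fold, adjusted p = 1.5e-04). On this probe set old ABC lay between old B1 and old FO with no overlap between any of the 3 groups. The size depended on the probe set: in the fit of all probe sets, where 10.6% were called, the others gave 0.90 ± 0.22 (adjusted p = 0.0269) and 0.77 ± 0.40 (adjusted p = 0.283, not called). On the last of these the groups overlapped, at 6.69, 5.84 and 6.94 in old ABC and 5.49, 5.26 and 6.42 in old B1. Slamf6 was higher by 0.47 ± 0.13 (adjusted p = 0.0344), and its other probe sets were not called (0.52 ± 0.22, adjusted p = 0.193, and 0.75 ± 0.31, adjusted p = 0.166). The Slamf6 call was lost under 8 of 20 alternatives, among them the replicate block (adjusted p = 0.059), the 2 groups alone (0.122), and each of the arrays old ABC replicate 1 (0.133), old ABC replicate 2 (0.0666), old ABC replicate 3 (0.0523), old B1 replicate 1 (0.0648), old B1 replicate 2 (0.103) and young B1 replicate 3 (0.0569) left out.

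Slamf9 read 9.66, 7.47 and 7.46 in old ABC, against 11.67, 11.47 and 12.51 in old B1, and fell by 3.69 ± 0.50 in old ABC (adjusted p = 8.2e-04). The highest old ABC array lay under the lowest old B1 array, and without old ABC replicate 1 it fell by 4.42. Slamf7 (1.23 ± 0.46, adjusted p = 0.12, and 0.60 without old B1 replicate 3), Slamf8 (1.27 ± 0.64, adjusted p = 0.249, and 0.46 without that array) and Cd48 (0.48 ± 0.23, adjusted p = 0.221) were not called. Under 3 of 20 alternatives Cd48 was called: without old FO replicate 2 (0.48, adjusted p = 0.0419), with both outlying arrays left out (0.57, adjusted p = 0.0138) and with array weights (0.59, adjusted p = 0.0205). Slamf7 was called under 1, with array weights (0.93, adjusted p = 0.0463). Cd84 (0.22 ± 0.12, adjusted p = 0.304) and Ly9 (0.12 ± 0.09, adjusted p = 0.458) were not called either. Of the macrophage markers 1 of 13 was higher and 2 lower in old ABC, 4 of 6 mast cell markers were lower, and all 8 neutrophil markers were higher, with sums of 20693 to 35028 in old ABC, against a median of 344 and no more than 391.9 in old B1. Of the other lists 3 of 8 plasma cell, 3 of 7 dendritic cell, 1 of 9 T cell and 2 of 7 NK cell markers were higher in old ABC and 0 lower. Their part in the receptors' differences was not tested.

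In SLAM signalling 3 of 13 genes were higher in old ABC and 1 was lower, beside 12.8% of all genes called. Fyn was higher by 1.91 ± 0.39 (adjusted p = 0.00814, and 1.31 without old B1 replicate 3), Ptpn6 by 0.56 ± 0.10 (adjusted p = 0.00356) and Csk, a kinase that restrains Src-family kinases, by 0.50 ± 0.14 (adjusted p = 0.039, and 0.31 without old B1 replicate 3). Bcl10, an adaptor on the way to NF-kappaB, was lower by 0.50 ± 0.09 in old ABC (difference -0.50, adjusted p = 0.00437). Sh2d1a differed by 0.75 ± 0.43 (adjusted p = 0.315), Cd244a by -0.60 ± 0.28 (adjusted p = 0.212) and Cd2 by -0.24 ± 0.09 (adjusted p = 0.114).

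Old B1 against young B1 cells is the comparison of age within 1 cell type. By limma 0 of the 8 receptors were called, 0 also at an unadjusted p under 0.05, beside 0.291% of all genes called, and 0 were called under any of the 20 alternatives. The largest difference was that of Slamf9, at 11.67, 11.47 and 12.51 in old B1, against 10.96, 10.87 and 10.84 in young B1. Its groups did not overlap, and the difference of 0.99 ± 0.50 (adjusted p = 0.691) has a 95% interval from -0.13 to 2.11 that spans 0. Without old B1 replicate 3 it was 0.68.

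Slamf1 read 9.05, 8.73 and 8.91 in old B1, against 8.53, 8.65 and 8.55 in young B1 (0.32 ± 0.14, adjusted p = 0.659, unadjusted p = 0.0506). Slamf7 read 8.12, 8.08 and 6.20 in old B1, against 8.26, 8.48 and 8.23 in young B1 (-0.86 ± 0.46, adjusted p = 0.698), and the difference was -0.23 without old B1 replicate 3. Slamf8 read 6.15, 5.62 and 3.48 in old B1, against 4.57, 6.02 and 5.25 in young B1 (-0.20 ± 0.64, adjusted p = 0.942), and the sign turned without old B1 replicate 3 (0.61). The groups of Slamf1, Slamf7 and Slamf9 did not overlap, 3 of the 8 receptors, beside 13.9% of all genes. The 95% intervals of Slamf6 (-0.29 to 0.27), Ly9 (-0.27 to 0.15), Cd84 (-0.41 to 0.13) and Cd48 (-0.65 to 0.36) stayed within 1 log2 unit of 0 on the probe sets used for the genes, while that of Slamf8 ran from -1.61 to 1.21. Another Slamf6 probe set gave -0.61 with an interval from -1.29 to 0.07. Of the signalling genes 0 of 13 were called, with Fyn at -0.58 ± 0.39 (adjusted p = 0.711; 0.02 without old B1 replicate 3) and Sh2d1a at 1.20 ± 0.43 (adjusted p = 0.527), and of the Cd48 partners 0 of 2, with Cd244a at -0.92 ± 0.28 (adjusted p = 0.369) and Cd2 at 0.07 ± 0.09 (adjusted p = 0.821). Without the 2 arrays that stand apart 1 signalling gene was called. Of 13 macrophage and 6 mast cell markers 0 were called, with macrophage sums of 11863 to 29935 in old B1, against 15449 to 26452 in young B1, and mast cell sums of 1921 to 4519 in old B1, against 2058 to 9669 in young B1. Of 7 dendritic cell markers 1 was lower in old B1. Among the plasma cell, neutrophil, T cell and NK cell markers 0 were called. The part of these cells in the receptors' values was not tested.

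**Figure D4:**
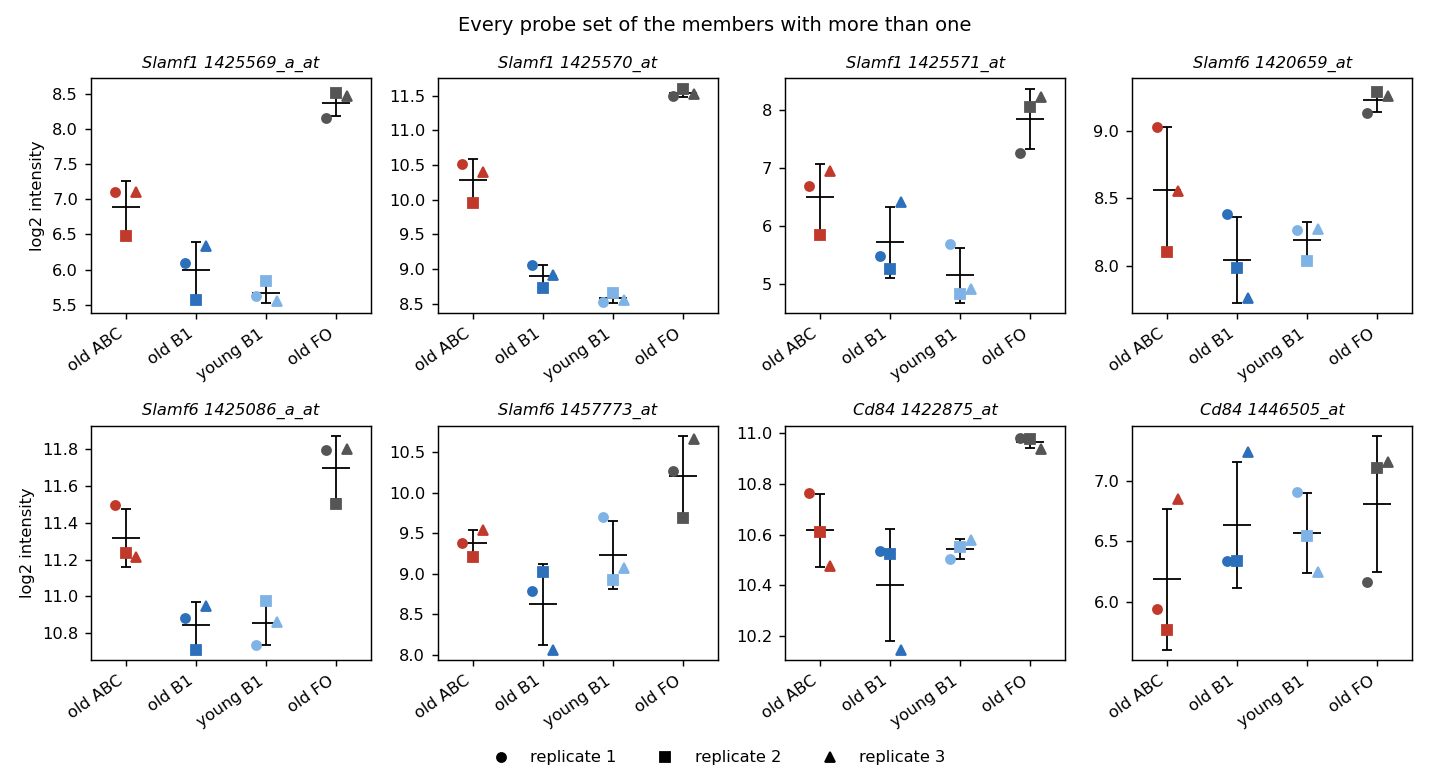
Log2 intensity (vertical axes, separate ranges) of every probe set of Slamf1, Slamf6 and Cd84, by group. Points are arrays, shaped by replicate, and bars are the mean ± SD of 3 arrays. All 3 probe sets of Slamf1 and of Slamf6 have their highest group mean in old FO; the second probe set of Cd84 does not separate old B1 from old FO.

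Across the 4 groups the order of the means, high to low, was old FO, old ABC, young B1, old B1 for Slamf6, Slamf7, Cd84 and Ly9, and the same for Slamf1 but with the B1 groups exchanged. For Slamf1 the steps from old FO to old ABC and from old ABC to old B1 were called. For Slamf7, Cd84 and Ly9 no step between neighbours in that order that was tested was called, only that between old B1 and old FO. Slamf9 had the order old B1, young B1, old ABC, old FO, with the young B1 arrays at 10.84 to 10.96 and the highest array of either spleen group at 9.66. Slamf8 had the order old ABC, young B1, old B1, old FO. The span of the group means was 3.87 for Slamf9, 2.96 for Slamf1, 2.59 for Slamf8 and 1.93 for Slamf7, against 0.85 for Slamf6, 0.56 for Cd84, 0.48 for Cd48 and 0.36 for Ly9. Of all pairs of receptors, Cd84 and Ly9 had the most similar profiles, with a root mean square difference of 0.13 log2 units over the 12 arrays once each gene was centred on its own mean.

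By the same measure, the genes most like Slamf1 among 10682 compared were Samsn1 (0.28), an adaptor of lymphocytes, Chchd10 (0.30), a mitochondrial protein, and Fcrl1 (0.34), an Fc receptor-like protein of B cells. Chchd10 averaged 11.70 in old ABC, 9.97 in old B1, 10.38 in young B1 and 12.98 in old FO. Those most like Slamf7 were Tmem64 (0.27), Zfp354c (0.27) and Lmo4 (0.29). Those most like Slamf8 were Hfe (0.36), the iron-regulating protein of haemochromatosis, Tifab (0.39) and Cd300c2 (0.40). Those most like Slamf9 were Kndc1 (0.40), Rtn4rl1 (0.47), a relative of the Nogo receptor, and Tmeff1 (0.48). Rtn4rl1 averaged 6.38 in old ABC, 10.47 in old B1, 9.93 in young B1 and 6.22 in old FO. The genes compared were those whose highest group mean reached the median of all probe sets, without predicted genes, clone-like names and immunoglobulin segments. The 12 points share 4 groups, so the measure is a description.

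**Figure D5:**
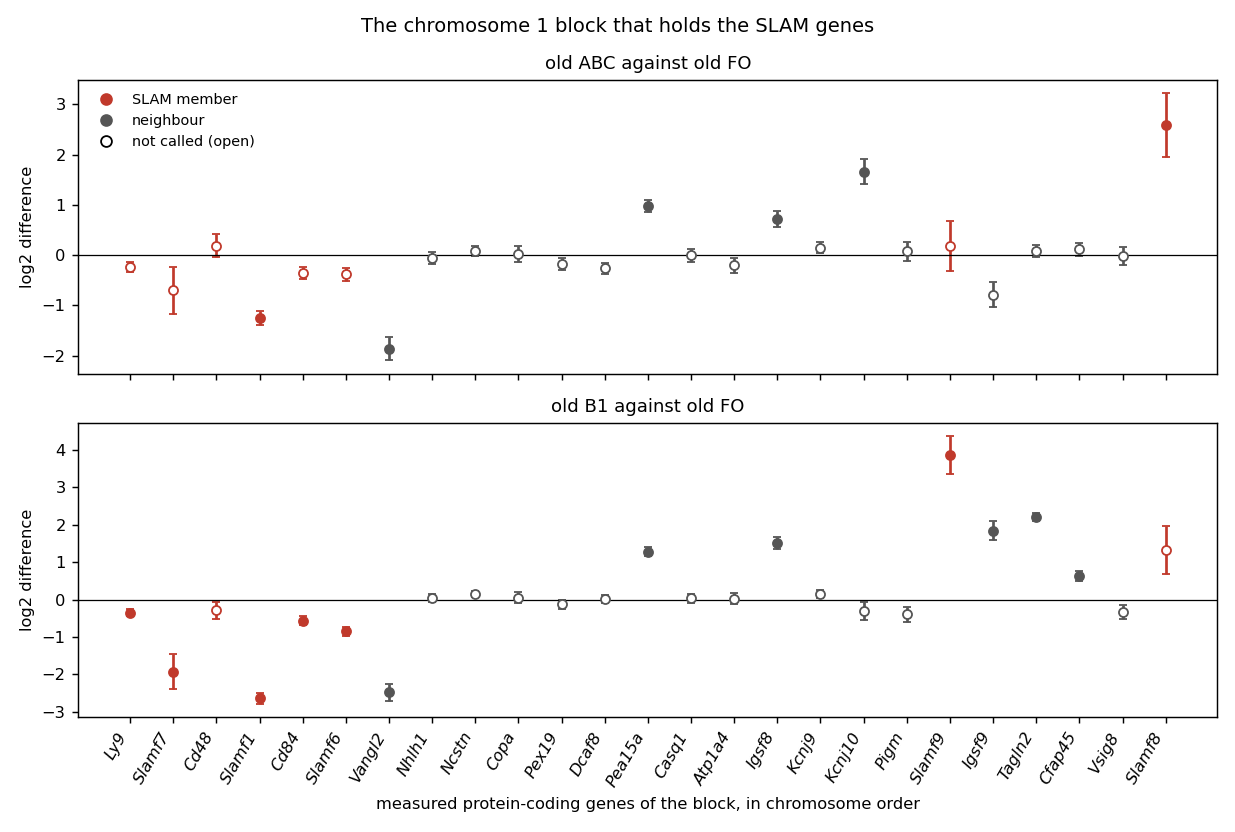
Log2 differences ± standard error (vertical axes) of old ABC against old FO (top) and of old B1 against old FO (bottom) for the 25 measured protein-coding genes of the chromosome 1 block, in chromosome order along the horizontal axis. Red points are SLAM receptors, grey points their neighbours, and open points were not called; in the lower panel the run from Ly9 to Vangl2 holds no value above 0, and Slamf9 stands at 3.87.

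The genes that lie between the receptors were read from the reference gene table. Of the 17 measured neighbours, 5 were higher and 1 lower in old B1 against old FO, and 11 were not called, beside 16.4% of all genes called. Tagln2, an actin-binding protein that lies near Slamf9, was higher by 2.21 ± 0.11 (adjusted p = 8.95e-07), Igsf8, an immunoglobulin-superfamily protein, by 1.52 ± 0.16 (adjusted p = 1.2e-04) and Pea15a, a small signalling protein, by 1.29 ± 0.12 (adjusted p = 5.8e-05). Vangl2, a planar cell polarity gene that follows Slamf6, fell by 2.48 ± 0.23 (adjusted p = 4.6e-05). In old ABC against old FO, 3 neighbours were higher and 1 lower, beside 9.96% of all genes called. Vangl2 fell by 1.86 ± 0.23 (adjusted p = 5.0e-04), and Pea15a (0.98 ± 0.12, adjusted p = 5.6e-04), Kcnj10, a potassium channel (1.66 ± 0.25, adjusted p = 0.00163), and Igsf8 (0.72 ± 0.16, adjusted p = 0.0183) rose. In old ABC against old B1, 1 was higher and 4 lower, beside 12.8% of all genes called. Tagln2 at -2.12 ± 0.11 (adjusted p = 1.8e-06) and Igsf9, the neighbour of Slamf9, at -2.63 ± 0.25 (adjusted p = 8.9e-05) were among the lower ones. Kcnj10 was the higher one (1.97 ± 0.25, adjusted p = 5.2e-04). Between old and young B1 cells 0 of 17 neighbours were called, beside 0.291% of all genes. The median difference of the neighbours between old B1 and old FO was 0.04, beside -0.04 over all genes.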

How the data were processed

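Sorted B cells were measured on 12 Affymetrix mouse arrays. The authors deposited linear intensity values of 3.00 to 22068. RMA and affy are named, per the submitters' processing notes; not given in the sources used here are versions, order and background correction.

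The log2 of each deposited intensity was taken. Of 45037 probe sets, 34945 carried 1 gene symbol in the platform annotation, 932 several and 9160 none, and 34741 of the first kind matched the reference gene table. For each gene the single-symbol probe set of highest mean was kept, leaving 18193 genes. Groups were taken from the sample titles. All 12 arrays entered 1 linear model with 4 group means (limma 3.58.1, lmFit and eBayes, R 4.3.3; 8 residual degrees of freedom, prior 2.37), and p-values were Benjamini-Hochberg adjusted over all genes of a comparison. A gene was called at an adjusted p under 0.05. Other probe sets of the SLAM genes were read from the same model fitted to all 34945 probe sets. The procedure was tested on simulated data.

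The members and gene lists were chosen with earlier results of these data known. All 8 receptors are named. Of the signalling list (18 genes, 13 measured) the called members with the lowest p, up to 6 a comparison, and Sh2d1a and Fyn are named, of the chromosome neighbours (19 genes, 17 measured) up to 4 called, and both Cd48 partners always. For receptors whose group means span at least 1 log2 unit, the 3 genes with the most similar profile are named. Genes whose highest group mean was under the median of all probe sets were left out of that search. Predicted genes, clone-like and LOC names and immunoglobulin segments were passed over. Alternatives were other limma settings, array weights, a replicate block, the compared groups alone, quantile normalization, a filter on dim genes, the mean of a gene's probe sets, and leaving out arrays. Python 3.11.15 and matplotlib 3.10.9 drew the figures.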

Additional observations from a re-analysis of the deposited data

How the results depend on the processing

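Of the called receptor differences, those of Slamf1 and Slamf9 in each comparison where they were called, and of Slamf6 between old B1 and old FO, stayed called under all 20 alternatives. The other calls were lost under at least 1 alternative, as given above. Single other probe sets are not among the 20 alternatives. Another probe set of Slamf1 was not called in old ABC against old FO (limma adjusted p = 0.0708) or in old ABC against old B1 (0.283).

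Counts that moved by over 1.5 times were these. Array weights gave 3961 called genes in place of 1812 for old ABC against old FO, 3592 in place of 2334 for old ABC against old B1, 5001 in place of 2988 for old B1 against old FO and 316 in place of 53 for old B1 against young B1, and 4 receptors in place of 2 and 5 in place of 3 in the first and second. The 2 compared groups alone gave 1062 genes in old ABC against old B1, 1455 in old B1 against old FO and 2 in old B1 against young B1, and 3 receptors in place of 6 in old B1 against old FO. Without both arrays that stand apart, 2964 genes were called in old ABC against old FO, with 4 receptors, and 208 in old B1 against young B1. With the replicate block 1 receptor was called in old ABC against old FO, and 32 genes in old B1 against young B1. Equal replicate numbers do not mark a shared animal in the labels, and 3 of 18 same-numbered pairs had a correlation of deviations over 0.1 (range -0.39 to 0.23); 3 of 12 arrays correlated best with their own number.

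A setting added after seeing the data left out both arrays and counted calls in the signalling list, the neighbours and the macrophage markers. It called 7 in place of 3 macrophage markers in old ABC against old B1 and 1 in place of 0 in old B1 against young B1. The other marker lists were not counted in this setting.

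Leaving out 1 array gave 1267 to 2837 genes and 1 to 3 receptors in old ABC against old FO, 1609 to 2738 and 2 to 4 in old ABC against old B1, 2098 to 3555 and 4 to 7 in old B1 against old FO, and 17 to 165 and 0 to 0 in old B1 against young B1.

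Among receptor differences 13 changed sign, 0 of them called. In old ABC against old FO these were Cd48 without old FO replicate 2, alone or with old B1 replicate 3 (-0.11 each; 1 array left out, -0.11 to 0.40), and Slamf9 without old ABC replicate 1 (-0.55; range -0.55 to 0.55). In old ABC against old B1 Cd84 gave -0.12 as the mean of its probe sets and -0.45 for its second probe set, which gave 0.070 in old B1 against young B1. In that comparison Slamf6 gave 0.010 with quantile normalization, 0.060 without old B1 replicate 2 and 0.05 without young B1 replicate 2 (range -0.070 to 0.060), and Slamf8 gave 0.51 with array weights, 0.61 without both arrays that stand apart, 0.61 without old B1 replicate 3 and 0.17 without young B1 replicate 2 (range -0.73 to 0.61). The cause of these changes was not tested. The number of arrays and the dim values of Slamf8 limit the precision.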
